A study of Mus musculus with 30 samples.

Results

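The genes described here are 37 members of the integrated stress response, the gene programme controlled by the transcription factor ATF4, in 3T3-L1 cells in which Kdm5c was silenced. The members were taken by name and comprise 6 transcription factor genes, 7 feedback and growth regulators, 5 amino acid transporters, 7 enzymes of amino acid and one-carbon metabolism and 12 cytosolic aminoacyl-tRNA synthetases. All 37 were among the 12016 genes of the deposited count table. 3T3-L1 cells are mouse fibroblasts with the capacity for adipocyte differentiation, and they were kept here in preadipocyte medium. While still sub-confluent, the cells received 50 nM of a non-targeting siRNA, called scramble, or 50 nM of an siRNA against Kdm5c, an X-linked gene for a histone H3 demethylase. Both siRNAs came from Dharmacon and were delivered by reverse transfection with Lipofectamine RNAiMAX, so every library came from transfected cells of 1 line. Cells were collected 24 h (day −2), 48 h (day −1) and 72 h (day 0) later, with 5 libraries in each of the 6 combinations of siRNA and day and 30 in all.

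In the integrated stress response, kinases that sense amino acid shortage, misfolded protein in the endoplasmic reticulum, double-stranded RNA or haem shortage phosphorylate the initiation factor eIF2. Bulk protein synthesis then slows, while the mRNA of Atf4 is translated more, because small open reading frames ahead of its coding sequence otherwise hold ribosomes back. ATF4 pairs with C/EBP proteins at composite C/EBP-ATF elements and raises transcription of genes for amino acid uptake, amino acid synthesis, tRNA charging and the later shut-off of the response. Messenger RNA levels report the amount of Atf4 mRNA and of its targets, not the amount of ATF4 protein.

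Library totals ran from 25217905 to 33725717 reads, and levels are given as CPM, the reads of a gene scaled by its library's total. Errors of log2 differences are standard errors. Kdm5c itself was at 157 ± 1.75 CPM (SD, n = 5) in scramble and 25.5 ± 1.29 CPM in Kdm5c siRNA libraries on day −2. On day −1 it was at 189 ± 2.91 and 35.6 ± 3.57 CPM and on day 0 at 212 ± 4.84 and 53.3 ± 2.37 CPM, and the groups did not overlap on any day. Of the 8 preadipocyte and fibroblast markers all were in the count table, while of 7 adipocyte markers only Fabp4, Pparg and Cebpa were, and of 8 markers of other cell types only Cd68 was, with Epcam and Myod1 at 0 reads in every library. The labels do not say whether the 5 libraries of a group came from separate cultures, so a p-value here rests on library-to-library spread that may be technical. In RNA from whole cultures, fewer cells of a kind and less RNA per cell cannot be told apart.

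Several libraries stood apart in the members' mean level, taken as log2 CPM relative to the scramble mean of day −2. Kdm5c siRNA replicate 2 of day −2 was at 0.30, against 0.045 to 0.12 in the other 4 libraries of its group. On day −1, scramble replicates 1, 2 and 3 were at 0.17, 0.18 and 0.23, whereas scramble replicates 4 and 5 were at 0.36 and 0.33, within the range of 0.30 to 0.38 of the Kdm5c siRNA libraries. Scramble replicate 1 of day 0 was at 0.38, against 0.21 to 0.29 in the other 4. The members' total counts of calls after Kdm5c siRNA, and some single calls, are given with and without them. Counts by promoter core and all results of genes outside the members are given only with every library included. The double-stranded RNA kinase gene Eif2ak2 was also highest in Kdm5c siRNA replicate 2 of day −2, at 182 CPM, against 105 to 124 CPM in the others; its part in the result was not tested.

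**Figure D1:**
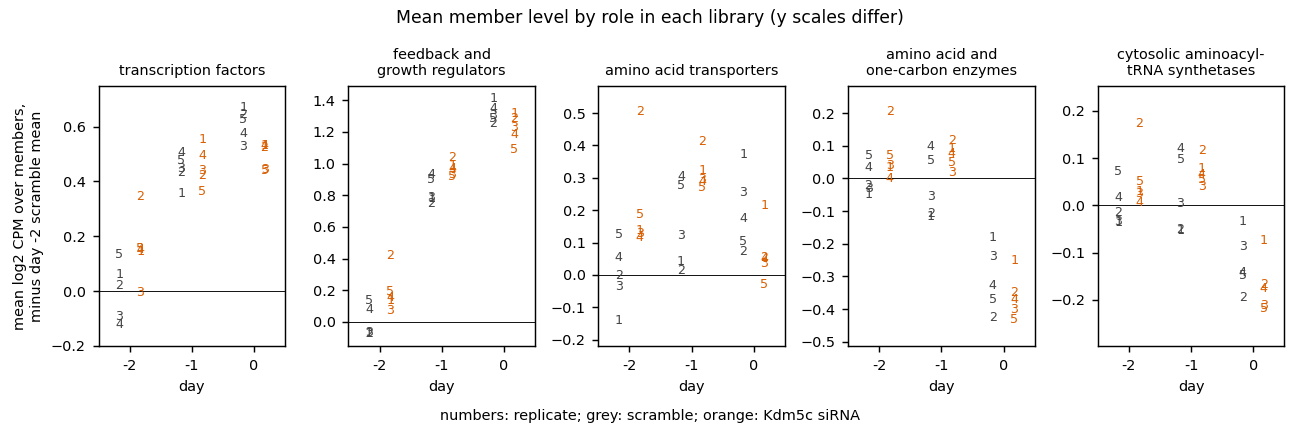
Mean log2 CPM over the members of each role, minus the day −2 scramble mean, against day, with 1 digit per library giving its replicate number (grey scramble, orange Kdm5c siRNA). Kdm5c siRNA replicate 2 lies above its group on day −2, and scramble replicates 4 and 5 lie with the Kdm5c siRNA libraries on day −1, in most panels.

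The promoters of the members are shown first, because the composite C/EBP-ATF element is the sequence that links many of them to ATF4. RefSeq promoter windows (GRCm38.p6, 250 bases before to 50 after the start site) were found for 31 of the 37 members, and 13 of the 31 (41.9%) held the core TGATGNAA on either strand, against 4.51% of the 27025 genes with a window. Stretches around the core are printed for 8 of these members, 5′ to 3′ on the gene's strand, with the core or its reverse complement in capitals. They include genes that rose on days −2 and −1 (Vldlr and Slc7a11) or on all 3 days (Nupr1). Chac1 and Asns were called only as lower on day 0, and Pycr1 rose on day −1 and fell on day 0. Synthetase genes with no call against scramble on any day are also printed (Aars and Tars):
Nupr1: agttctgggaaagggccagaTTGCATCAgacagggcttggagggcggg
Vldlr: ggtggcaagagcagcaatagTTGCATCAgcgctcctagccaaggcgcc
Slc7a11: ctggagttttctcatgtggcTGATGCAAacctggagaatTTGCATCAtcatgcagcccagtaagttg
Chac1: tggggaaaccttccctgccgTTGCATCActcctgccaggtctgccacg
Asns: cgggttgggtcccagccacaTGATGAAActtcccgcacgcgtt
Pycr1: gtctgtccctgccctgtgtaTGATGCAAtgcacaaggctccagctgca
Aars: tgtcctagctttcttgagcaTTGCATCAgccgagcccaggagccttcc
Tars: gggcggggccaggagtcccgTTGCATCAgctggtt
The stretches printed are those of Nupr1 at chr7:126625553-126625600 (minus strand), Vldlr at chr19:27216800-27216847 (plus strand), Slc7a11 at chr3:50443633-50443699 (minus strand) and Chac1 at chr2:119351029-119351076 (plus strand). The others are those of Asns at chr6:7693210-7693252 (minus strand), Pycr1 at chr11:120643824-120643871 (minus strand), Aars at chr8:111033710-111033757 (plus strand) and Tars at chr15:11399659-11399693 (minus strand). Slc7a11 held 2 cores in opposite orientations, beginning 66 and 47 bases before its start site. The core of Asns began 23 bases before the start and differed from the other printed cores, which share the letters TGATGCAA or their reverse complement TTGCATCA. Atf3, Trib3, Gars, Iars and Yars also held a core. The antioxidant response core TGACNNNGC, known as a site of NRF2 and searched separately on both strands, so that matches of the 2 cores may overlap, was in 9 of the 31 members and in 3781 of the 27025 genes. A match is a description of letters in this window and not evidence of binding.

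Silencing of Kdm5c was followed by small differences from scramble, mostly upward over the members at 24 h and mostly downward at 72 h, with a minority of members called on each day. On day −2, 11 of the 37 members rose and none fell, against 11.3% of all 12016 genes called higher and 11.9% called lower by edgeR's quasi-likelihood test at an adjusted p under 0.05. No member was lower at an unadjusted p under 0.05 either, and DESeq2 also called 0 lower. On day −1, 10 members rose and none fell, with 18.8% of all genes called higher and 16.8% lower; again 0 were lower at an unadjusted p under 0.05 or by DESeq2. On day 0, 12 members fell and 1 rose, with 16.2% of all genes called lower and 19.3% higher. The median log2 difference over the members was 0.081 on day −2, 0.075 on day −1 and −0.073 on day 0, and that over all genes was 0.00035, 0.0024 and 0.0034. The difference was positive for 36 of the 37 members on day −2, 30 on day −1 and 5 on day 0. Groups did not overlap for 3, 8 and 4 members on the 3 days, against 16.1%, 22.3% and 21.7% of all genes. Complete separation of the libraries was thus near or below its frequency among all genes on each day.

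**Figure D2:**
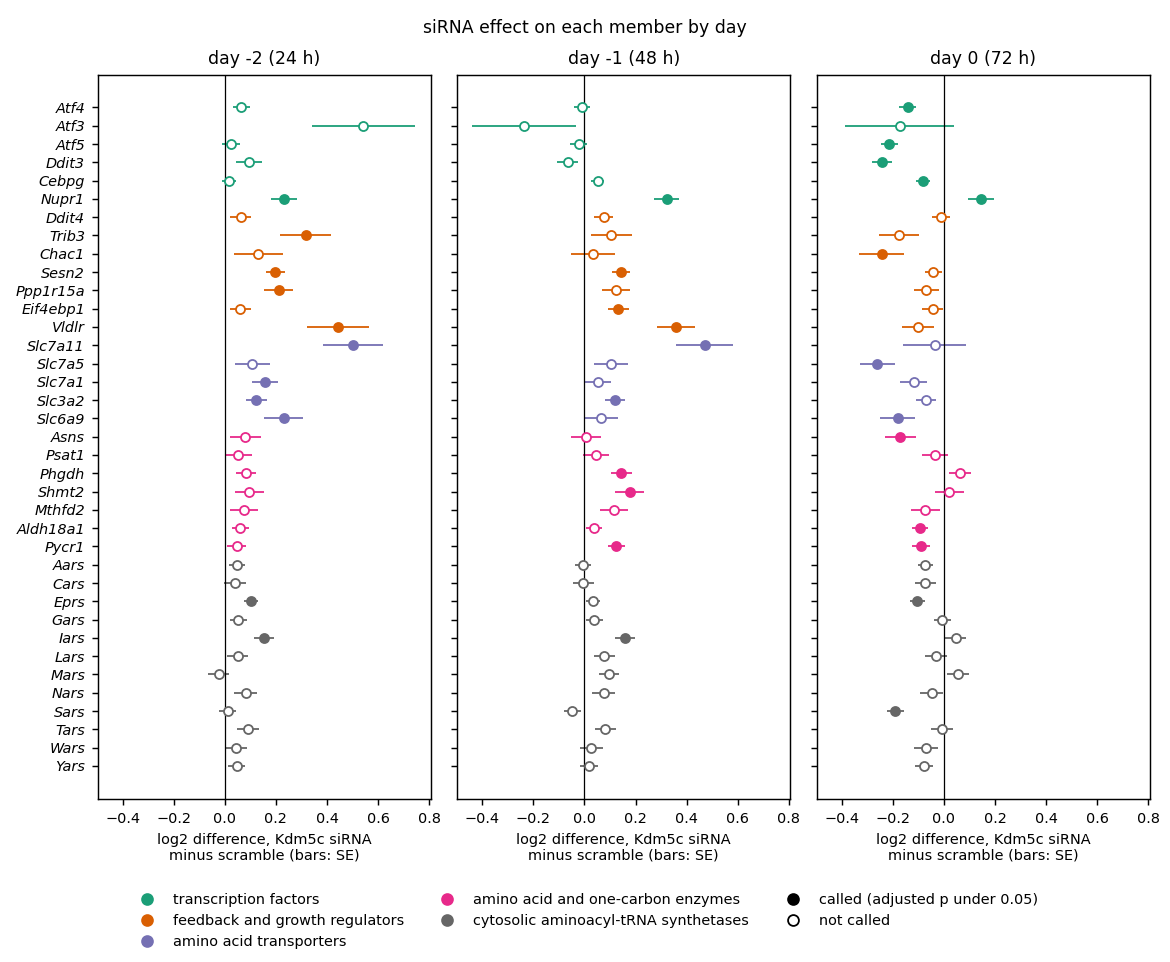
Log2 difference between Kdm5c siRNA and scramble for each member on each day (bars, SE; filled circles, called at an adjusted p under 0.05), coloured by role. Filled circles lie right of 0 on days −2 and −1 and, except for Nupr1, left of 0 on day 0.

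The counts depended on single libraries. Without Kdm5c siRNA replicate 2, 7 members rose on day −2 and the median was 0.032, with the calls of Trib3, Slc7a1, Slc3a2 and Slc6a9 lost (adjusted p 0.14, 0.12, 0.11 and 0.16). Each of these calls was also lost without scramble replicate 1, those of Trib3, Slc7a1 and Slc3a2 without scramble replicate 3, and Slc6a9 without scramble replicate 2. On day −1 the call of Shmt2 was lost without scramble replicate 1 or 2 (adjusted p 0.054 and 0.055). That of Slc3a2 was lost without scramble replicate 1 or 2 or Kdm5c siRNA replicate 2 (adjusted p 0.057, 0.064 and 0.052). With scramble replicates 1, 2 and 3 left out together on day −1, 1 member rose (Nupr1), 1 fell (Sars) and the median was −0.019. The day −1 differences were then 0.090 for Sesn2, 0.24 for Vldlr, 0.028 for Slc3a2, 0.052 for Phgdh, 0.029 for Shmt2 and 0.066 for Iars, all without a call. On day 0, 7 members fell without Kdm5c siRNA replicate 3 or without replicate 5, and 8 fell without scramble replicate 1. The count of 7 is near the 16.2% of all genes called lower on day 0 with every library included. In either direction, 33.1%, 33.1% and 35.8% of all genes were called in these 3 day 0 fits. The share was 19.3% on day −2 without Kdm5c siRNA replicate 2. It was 21.4% on day −1 without scramble replicates 1, 2 and 3. The day 0 calls of Atf4, Atf5, Ddit3, Slc7a5, Eprs and Sars were kept whichever single library was left out, and those of Cebpg, Chac1, Slc6a9, Asns, Aldh18a1 and Pycr1 were each lost without at least 1 library.

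Single markers moved with the siRNA on all 3 days, and summed marker levels moved on days −2 and 0. On day −2 the summed level of the 8 preadipocyte and fibroblast markers was 16333 to 16966 CPM in scramble and 17249.9 to 18208 CPM after Kdm5c siRNA, without overlap, with Col1a1 at 0.14 ± 0.033 (adjusted p = 0.0015) and Col3a1 at 0.14 ± 0.052 (adjusted p = 0.041). On day 0 this sum was 22661 to 24704 and 20941 to 23302 CPM, with overlap. Single genes of the 8 moved in both directions. On day −2, 2 rose and 1 fell, on day −1, 2 rose and 4 fell, and on day 0, 1 rose and 4 fell. That was 37.5%, 75% and 62.5% of the 8, against 23.2%, 35.6% and 35.5% of all genes called. Dlk1 was lower on each day (−0.097, −0.18 and −0.21). Zfp423 was lower on days −1 and 0 (−0.36 and −0.52) and Pdgfra on day −1 (−0.24). Thy1 was higher on day 0 (0.27). The summed level of the 8 markers of other cell types on day 0 was 1.84 to 2.22 CPM in scramble and 3.04 to 5.02 CPM after Kdm5c siRNA, with Cd68, a macrophage marker, at 0.91 ± 0.13 (adjusted p = 1.3e-06). That of the 7 adipocyte markers was 68.6 to 74.2 and 76.6 to 83.4 CPM on day 0. Both of these sums were without overlap on day 0 and overlapped on days −2 and −1, and all 3 overlapped on day −1. Of the 3 adipocyte markers in the count table, 1 rose on each of days −2 and −1 and 2 on day 0, with 0 called lower. That was 33.3%, 33.3% and 66.7%, against 23.2%, 35.6% and 35.5% of all genes called. On day 0 Fabp4 was at 0.30 (adjusted p = 0.0015), Pparg at 0.088 (adjusted p = 0.046) and Cebpa at −0.18 without a call. The part of these cells in the members' differences was not tested.

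The transcription factors of the response did not move as 1 group. Atf4 mRNA on day −2 was at 308, 312, 311, 319.6 and 335 CPM in scramble and 325, 359, 319, 318 and 332 CPM in Kdm5c siRNA libraries. The groups overlapped, with a log2 difference of 0.065 ± 0.032 (adjusted p = 0.15). On day −1 the levels were 348, 352, 353, 377 and 367 CPM in scramble and 359, 368, 352, 361 and 345 CPM after Kdm5c siRNA, a difference of −0.0084 ± 0.032 (adjusted p = 0.87) between overlapping groups. On day 0 Atf4 was at 372, 333, 354, 349 and 342 CPM in scramble and 333, 324, 305, 320.1 and 301 CPM after Kdm5c siRNA. The highest Kdm5c siRNA library, replicate 1, was just below the lowest scramble library, replicate 2, so the groups did not overlap by a narrow margin. Atf4 fell by 0.14 ± 0.032 (adjusted p = 0.00064). The gene lies at chr15:80255184-80257541 (GRCm38).

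Atf5, a close relative of Atf4 that is itself translated more when eIF2 is phosphorylated, was at 308, 313, 311, 328 and 326 CPM in scramble and 305, 335, 305, 317 and 343 CPM in Kdm5c siRNA libraries on day −2. On day −1 it was at 489, 478, 465, 479 and 469 CPM in scramble and 464, 482, 455, 474 and 463 CPM after Kdm5c siRNA. The groups overlapped on both days, and neither difference passed the test (0.024 ± 0.034, adjusted p = 0.66, and −0.023 ± 0.033, adjusted p = 0.63). On day 0 scramble libraries were at 629, 553, 552, 594 and 567 CPM and Kdm5c siRNA libraries at 512, 481, 517, 513 and 469 CPM. Every Kdm5c siRNA library was below every scramble library, and Atf5 fell by 0.21 ± 0.033 (adjusted p = 4.5e-06).

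Ddit3 encodes CHOP, a partner of C/EBP proteins that promotes cell death under prolonged stress and holds back adipogenesis when overproduced. On day −2 it was at 14.5, 14.4, 13.7, 14.7 and 15.5 CPM in scramble and 16.5, 16.4, 12.9, 15.96 and 15.5 CPM after Kdm5c siRNA. The Kdm5c siRNA libraries held both the lowest value, replicate 3, and the 3 highest, and the difference was 0.094 ± 0.050 (adjusted p = 0.18). On day −1 the values were 36.3, 36.4, 35.7, 36.6 and 36.7 CPM in scramble and 35.5, 35.4, 34.7, 35.5 and 32.3 CPM after Kdm5c siRNA. These groups did not overlap, but the difference of −0.066 ± 0.041 (SE) did not pass the test over all genes (adjusted p = 0.22). On day 0 Ddit3 was at 59.5, 58.9, 57.6, 60.8 and 61.5 CPM in scramble and 50.8, 53.1, 48.9, 51.3 and 47.3 CPM after Kdm5c siRNA. The groups stood well apart, and Ddit3 fell by 0.24 ± 0.038 (adjusted p = 5.2e-06). Its exons share 4.73% of their length with genes on the opposite strand, among them the member Mars, and 6.13% with another annotated gene of the same name, so its reads are uncertain.

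Cebpg encodes C/EBPγ, a dimer partner of ATF4. Its levels on day −2 were 52.2, 50.1, 50.2, 51.1 and 53.8 CPM in scramble and 50.4, 53.9, 51.2, 51.9 and 51.6 CPM after Kdm5c siRNA, and on day −1 they were 72.9, 68.99, 73.1, 72.2 and 70.9 CPM and 73.8, 77.2, 73.6, 72.3 and 73.7 CPM. The groups overlapped on both days, with no call. On day 0 they were 77.1, 73.02, 76.7, 74.04 and 74.4 CPM in scramble and 75.1, 68.2, 67.3, 72.6 and 70.6 CPM after Kdm5c siRNA, still overlapping, and the fall of 0.081 ± 0.026 passed the test (adjusted p = 0.015), though not without Kdm5c siRNA replicate 2 or replicate 3.

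Nupr1, a stress-induced chromatin-associated regulator, was the 1 member called higher on all 3 days. It was at 29.3, 28.5, 25.9, 27.8 and 29.5 CPM in scramble and 33.2, 37.7, 30.9, 29.2 and 33.6 CPM after Kdm5c siRNA on day −2, where replicate 4 fell among the scramble values, and at 31.2, 29.1, 32.4, 33.3 and 30.9 CPM and 40.4, 37.7, 39.6, 40.3 and 37.9 CPM on day −1. On day −1 every Kdm5c siRNA library exceeded every scramble library. On day 0 the values were 28.4, 30.4, 27.3, 28.2 and 29.6 CPM in scramble and 31.02, 31.8, 29.5, 33.3 and 32.9 CPM after Kdm5c siRNA, with replicate 3 among the scramble values. The log2 differences were 0.23 ± 0.051 on day −2, 0.32 ± 0.049 on day −1 and 0.14 ± 0.051 on day 0 (adjusted p 0.00094, 3.2e-06 and 0.026). The day 0 call was lost when any of 4 libraries was left out (scramble replicate 3 or 4, or Kdm5c siRNA replicate 4 or 5).

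Atf3, an immediate stress-response repressor, had few reads. It was at 0.604 to 1.48 CPM in scramble and 1.10 to 2.34 CPM after Kdm5c siRNA on day −2, and its difference of 0.54 ± 0.20 (SE) narrowly missed the threshold (adjusted p = 0.0503). On days −1 and 0 the differences were −0.24 and −0.17, with overlapping groups and no call.

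**Figure D3:**
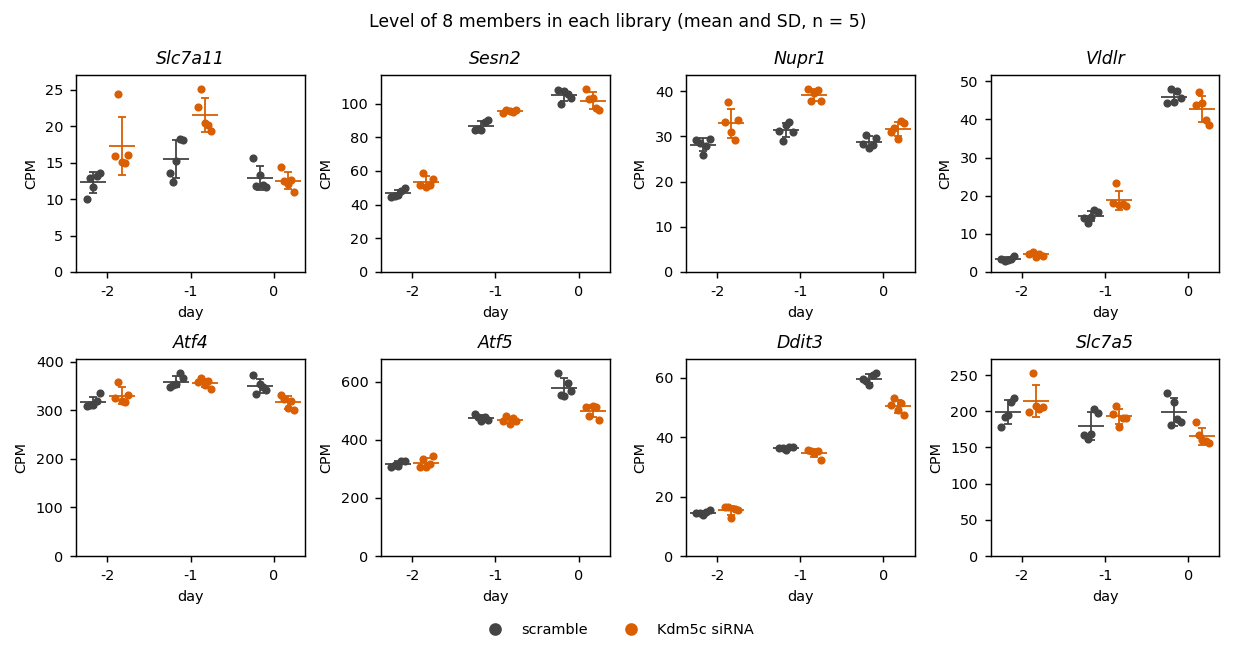
CPM of 8 members in each library by day (grey scramble, orange Kdm5c siRNA; horizontal mark, mean; bars, SD, n = 5; axes start at 0). In the top row Kdm5c siRNA libraries lie higher on days −2 and −1, and in the bottom row they lie lower on day 0.

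Among the feedback and growth regulators, 4 of 7 rose on day −2, 3 of 7 rose on day −1 and 1 of 7 fell on day 0, beside 11.3%, 18.8% and 16.2% of all genes in these directions. The day 0 count is near that share, and without Kdm5c siRNA replicate 2 the day −2 count was 3. Sesn2 encodes sestrin 2, which senses leucine and restrains mTORC1. Its day −2 levels were 44.6, 45.4, 45.8, 48.2 and 49.8 CPM in scramble and 51.7, 58.5, 50.3, 51.6 and 55.01 CPM after Kdm5c siRNA. All 5 Kdm5c siRNA libraries were above the highest scramble library, and Sesn2 rose by 0.20 ± 0.038 (adjusted p = 0.00020) on the log2 scale. On day −1 it was at 84.5, 85.1, 84.1, 89.2 and 90.3 CPM and 94.5, 95.99, 95.3, 95.2 and 96.3 CPM, again without overlap, with a rise of 0.14 ± 0.034 (adjusted p = 0.0014). On day 0 it overlapped, at 99.7 to 108 CPM in scramble and 96.2 to 109 CPM after Kdm5c siRNA.

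Vldlr, a lipoprotein receptor gene that ATF4 can induce and that also serves fat uptake in adipocytes, was at 3.45, 2.81, 3.24, 3.48 and 4.12 CPM in scramble and 4.67, 5.36, 4.03, 4.77 and 4.22 CPM after Kdm5c siRNA on day −2. Only Kdm5c siRNA replicate 3 fell below the highest scramble library. On day −1 the groups were at 14.2, 12.8, 14.5, 16.2 and 15.7 CPM and 18.2, 23.2, 17.5, 17.7 and 17.3 CPM and did not overlap. Vldlr rose by 0.44 ± 0.12 (adjusted p = 0.0079) and 0.36 ± 0.075 (adjusted p = 0.00029) on these days. On day 0 it was at 44.3 to 47.9 CPM in scramble and 38.6 to 47.2 CPM after Kdm5c siRNA, with no call (−0.10 ± 0.062, adjusted p = 0.22).

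Ppp1r15a encodes GADD34, the phosphatase subunit that removes phosphate from eIF2 and so ends the response. On day −2 it was at 15.2, 14.2, 14.8, 16.2 and 15.4 CPM in scramble and 15.8, 18.3, 15.99, 17.6 and 19.6 CPM after Kdm5c siRNA, where 2 of the 5 Kdm5c siRNA libraries lay within the scramble range. It rose by 0.21 ± 0.056 (adjusted p = 0.0054) and had no call on the later days (0.12 and −0.069). Trib3, a pseudokinase that inhibits ATF4 and AKT, was at 24.1 to 31.2 CPM in scramble and 28.5 to 44.95 CPM after Kdm5c siRNA on day −2 and rose by 0.32 ± 0.099 (adjusted p = 0.019); without replicate 2, at the top of that range, the difference was 0.17 (adjusted p = 0.14). Chac1, which degrades glutathione, was not called on days −2 and −1 (0.13 and 0.032) and fell by 0.24 ± 0.089 on day 0 (adjusted p = 0.031). Eif4ebp1, a repressor of cap-dependent translation, was called on day −1, where it was at 186 to 195 CPM in scramble and 200.4 to 215 CPM after Kdm5c siRNA (0.13 ± 0.041, adjusted p = 0.012). Ddit4, an mTORC1 inhibitor also known as REDD1, had no call on any day; on day −1 its groups were nonetheless apart, at 96.04 to 101 and 103 to 106 CPM.

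Of the amino acid transporters, 4 of 5 rose on day −2, against 11.3% of all genes called higher. Without Kdm5c siRNA replicate 2 only Slc7a11 was called, and the differences of Slc7a1, Slc3a2 and Slc6a9 were 0.11, 0.083 and 0.13. Slc7a11 encodes xCT, which exchanges glutamate for cystine and feeds glutathione synthesis. On day −2 it was at 10.1, 12.9, 11.7, 13.1 and 13.6 CPM in scramble and 15.9, 24.4, 15.04, 14.96 and 16.1 CPM after Kdm5c siRNA. Every Kdm5c siRNA library was above every scramble library, with replicate 2 far above the rest, and Slc7a11 rose by 0.50 ± 0.12 (adjusted p = 0.0020). On day −1 it was at 13.5, 12.4, 15.2, 18.3 and 18.2 CPM in scramble and 22.6, 25.1, 20.5, 20.2 and 19.3 CPM after Kdm5c siRNA, also without overlap, and rose by 0.47 ± 0.11 (adjusted p = 0.0012). Against scramble replicates 4 and 5 alone, the day −1 difference was 0.24 (adjusted p = 0.23). On day 0 the values were 15.6, 11.8, 13.4, 12.01 and 11.7 CPM and 14.4, 12.5, 12.1, 12.7 and 11.02 CPM, fully overlapping (−0.036 ± 0.12, adjusted p = 0.85).

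Slc3a2 encodes 4F2hc, the heavy chain that carries both xCT and LAT1 to the cell surface. It was at 197 to 220.0 CPM in scramble and 216 to 251 CPM after Kdm5c siRNA on day −2, and it rose on days −2 and −1 by 0.12 ± 0.039 (adjusted p = 0.021) and 0.12 ± 0.039 (adjusted p = 0.017). Slc7a1, the cationic amino acid transporter CAT1, rose on day −2 by 0.16 ± 0.051 (adjusted p = 0.025). Slc7a5 encodes LAT1, the transporter of large neutral amino acids. It had no call on days −2 and −1 (0.11 and 0.10) and on day 0 was at 225, 181, 213, 189 and 185 CPM in scramble and 185, 167, 159.9, 159 and 156 CPM after Kdm5c siRNA. Only Kdm5c siRNA replicate 1 reached the scramble range, and Slc7a5 fell by 0.26 ± 0.068 (adjusted p = 0.0030). Slc6a9, the glycine transporter GlyT1, was called in both directions, higher on day −2 (0.23 ± 0.075, adjusted p = 0.024) and lower on day 0 (−0.18 ± 0.068, adjusted p = 0.035). Its day −2 call was lost without scramble replicate 1 or 2 or Kdm5c siRNA replicate 2. Its day 0 call was lost without scramble replicate 1, 3 or 4 or Kdm5c siRNA replicate 2, 3 or 5, and with the replicate numbers as a block (adjusted p = 0.051). Exons of opposite-strand genes, B4galt2 and Ccdc24 among them, overlap 30.2% of the exon length of Slc6a9, so its reads are uncertain without a stated strand setting.

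The 7 enzymes had no call on day −2, where their differences ran from 0.046 for Pycr1 to 0.10 for Shmt2. On day −1 Phgdh and Shmt2, which make serine and turn it into glycine in mitochondria, rose by 0.15 ± 0.041 (adjusted p = 0.0051) and 0.18 ± 0.057 (adjusted p = 0.014). The call of Shmt2 was lost without scramble replicate 1 or without scramble replicate 2. Pycr1, the last enzyme of mitochondrial proline synthesis, rose as well, by 0.13 ± 0.035 (adjusted p = 0.0048). It was at 27.7 to 29.5 CPM in scramble and 29.7 to 31.96 CPM after Kdm5c siRNA, without overlap. On day 0 Asns, asparagine synthetase and a standard reporter of ATF4, was at 285, 225, 267, 246 and 235 CPM in scramble and 251, 219.5, 212, 228 and 205 CPM after Kdm5c siRNA. Kdm5c siRNA replicate 1 lay above 3 of the scramble libraries, so the groups overlapped, and Asns fell by 0.17 ± 0.060 (adjusted p = 0.025), a call lost without scramble replicate 1 or 3 or Kdm5c siRNA replicate 3 or 5. Both enzymes of proline synthesis in the group fell slightly on day 0, Aldh18a1 by 0.095 (adjusted p = 0.019) and Pycr1 by 0.090 (adjusted p = 0.037). The call of Pycr1 was lost without any of 8 of the 10 day 0 libraries (all but replicate 2 of each group) and with the replicate numbers as a block (adjusted p = 0.053), and that of Aldh18a1 without Kdm5c siRNA replicate 5. Psat1 of serine synthesis and Mthfd2 of the mitochondrial folate cycle had no call on any day, with differences between −0.073 and 0.11 for Mthfd2 and between −0.035 and 0.053 for Psat1.

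Of the 12 synthetases, which load amino acids onto tRNAs, 3 were called on any day. On day −2, 2 rose (16.7%), on day −1, 1 rose (8.33%), and on day 0, 2 fell (16.7%). The shares of all genes in these directions were 11.3%, 18.8% and 16.2%, so these counts are near or below them. Iars was at 277, 292, 282, 290.0 and 307 CPM in scramble and 317, 341, 313, 315 and 319 CPM after Kdm5c siRNA on day −2, without overlap, and rose by 0.15 ± 0.040 (adjusted p = 0.0051). It rose by 0.16 ± 0.040 (adjusted p = 0.0022) on day −1, where scramble replicate 4 alone reached the Kdm5c siRNA range of 296 to 326 CPM. Eprs rose by 0.10 ± 0.028 (adjusted p = 0.0078) on day −2 and fell by 0.10 ± 0.028 on day 0 (adjusted p = 0.0039). Sars on day 0 was at 394, 385, 392, 393 and 388 CPM in scramble and 356, 351, 338, 333 and 328 CPM after Kdm5c siRNA. The groups were clearly apart, and Sars fell by 0.19 ± 0.033 (adjusted p = 2.5e-05). The other 9 synthetase genes had no call against scramble on any day. Their differences ran from −0.025 for Mars to 0.091 for Tars on day −2, from −0.0065 for Aars to 0.10 for Mars on day −1, and from −0.078 for Yars to 0.055 for Mars on day 0. Exons of Exosc6 on the same strand overlap 14.3% of the exon length of Aars, so its reads are uncertain.

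Over the 3 days, 13 of the 37 members were never called, 5 were higher on days −2 and −1 only (Sesn2, Vldlr, Slc7a11, Slc3a2 and Iars) and 9 were called only as lower on day 0 (Atf4, Atf5, Ddit3, Cebpg, Chac1, Slc7a5, Asns, Aldh18a1 and Sars). Another 3 were higher on day −2 only (Trib3, Ppp1r15a and Slc7a1) and 3 on day −1 only (Eif4ebp1, Phgdh and Shmt2). Slc6a9 and Eprs went from higher on day −2 to lower on day 0, Pycr1 went from higher on day −1 to lower on day 0, and Nupr1 was higher throughout. A call on 1 day and none on another does not show a difference between the days, and that difference was tested directly.

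The siRNA effect on day 0 was lower than that on day −2 for 17 of the 37 members and higher for none, against 6.18% of all genes lower and 9.95% higher in the same test. No member was higher at an unadjusted p under 0.05, and DESeq2 called 0 higher and 16 lower. The median of this difference was −0.15 over the members and 0.010 over all genes, and 36 of 37 members had a negative value, the exception being Mars. All 5 transporters were among the 17, led by Slc7a11 at −0.54 ± 0.17 (adjusted p = 0.028), Slc6a9 at −0.41 ± 0.10 (adjusted p = 0.0044) and Slc7a5 at −0.37 ± 0.096 (adjusted p = 0.0072). Among the regulators, Vldlr changed by −0.54 ± 0.14 (adjusted p = 0.0057), Trib3 by −0.49 ± 0.13 (adjusted p = 0.0062), Chac1 by −0.37 ± 0.13 (adjusted p = 0.047), Ppp1r15a by −0.28 ± 0.075 (adjusted p = 0.0090) and Sesn2 by −0.24 ± 0.051 (adjusted p = 0.0012). Of the factors, Ddit3 changed by −0.34 ± 0.063 (adjusted p = 0.00027), Atf5 by −0.24 ± 0.047 (adjusted p = 0.00056) and Atf4 by −0.21 ± 0.045 (adjusted p = 0.0014). The others were Slc7a1, Slc3a2, Asns, Aldh18a1, Eprs and Sars, between −0.27 and −0.16. With Kdm5c siRNA day −2 replicate 2 and scramble day 0 replicate 1 both left out, 12 of the 37 were still called lower and 0 higher, and the median was −0.10. In that fit, 16.2% of all genes were called in either direction. The calls of Slc7a11 (adjusted p = 0.15), Chac1 (0.25), Asns (0.18), Slc3a2 (0.061) and Aldh18a1 (0.057) were then lost, and the differences were −0.30 for Slc7a11, −0.20 for Chac1, −0.15 for Asns and −0.10 for Aldh18a1. Trib3 and Slc6a9 kept their calls at −0.32 and −0.26. The call of Slc7a11 was also lost without day −2 scramble replicate 1, day −2 Kdm5c siRNA replicate 2, day 0 scramble replicate 1 or day 0 Kdm5c siRNA replicate 5, and those of Asns and Chac1 without any of 9 and 11 single libraries.

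**Figure D4:**
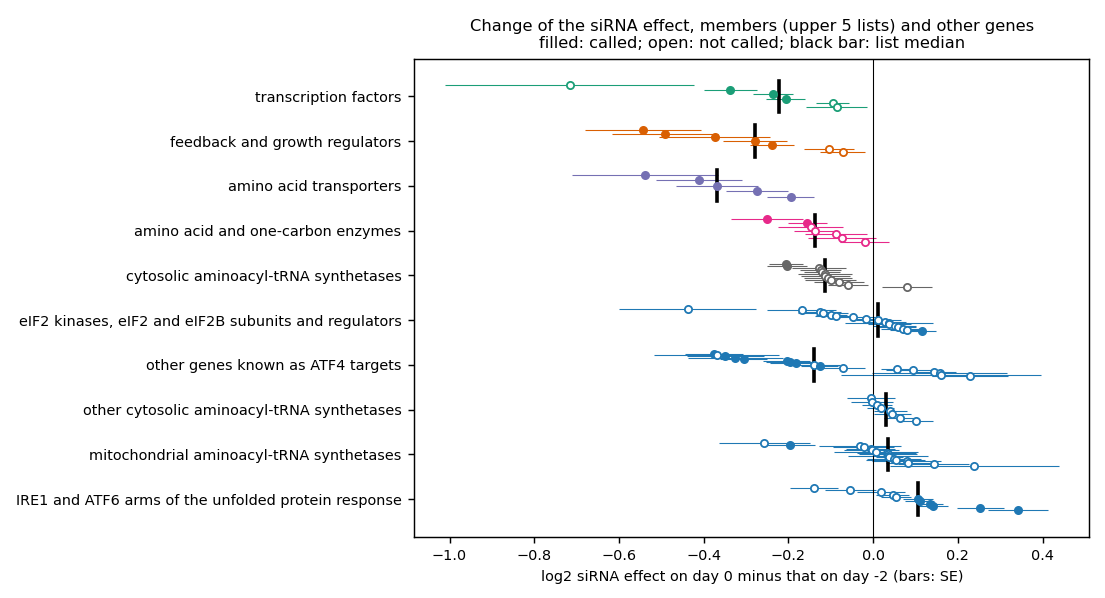
Log2 siRNA effect on day 0 minus that on day −2 for each gene (bars, SE; filled circles, called at an adjusted p under 0.05; black bar, list median), with the 5 member roles above and 5 lists of related genes below. Members and other ATF4 targets lie mostly left of 0, and genes of the IRE1 and ATF6 arms lie mostly right of it.

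Calls were counted for members with and without the C/EBP-ATF core in their window, and the difference between them was not tested. Of the 13 with the core, 5 rose on day −2, 5 rose on day −1 and 3 fell on day 0. Of the 18 with a window but no core, 6 rose, 4 rose and 8 fell. The shares of all genes in these directions were 11.3%, 18.8% and 16.2%, and the counts of 3 of 13 and 4 of 18 are near them. The effect changed downward between the days for 5 of the 13 and 11 of the 18, against 6.18% of all genes. Slc7a11, with its paired cores printed above, and Vldlr had the largest called rises on day −2, while Aars and Tars, with the same core letters, differed by 0.048 and 0.091 without a call.

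Related genes outside the members were read from lists of the same kind. Of 17 other ATF4 targets in the count table, 3 rose on day −2, 6 rose on day −1, and 4 rose and 6 fell on day 0. Of all genes, 11.3%, 18.8% and 19.3% were called higher on these days, and 16.2% were called lower on day 0. The counts of rises on days −2 and 0 are near these shares. The day 0 differences of the 17 ran from −0.23 to 0.26, with 5 positive and 12 negative. Only falls are named below for day 0. The effect on day 0 was lower than on day −2 for 8 of the 17, against 6.18% of all genes. The neutral amino acid transporter gene Slc1a4 went from 0.17 ± 0.051 (adjusted p = 0.011) on day −2 to −0.20 (adjusted p = 0.00094) on day 0. Aldh1l2, a mitochondrial folate enzyme, went from 0.11 ± 0.040 (adjusted p = 0.045) to −0.20 (adjusted p = 0.00012). Cth of cysteine synthesis rose by 0.33 ± 0.11 (adjusted p = 0.030) on day −2, and Slc1a5 and Herpud1 fell by 0.21 (adjusted p = 0.00017) and 0.17 (adjusted p = 0.00073) on day 0. Vegfa, Gdf15 and Slc38a2 rose on day −1, by 0.24 ± 0.044 (adjusted p = 7.4e-05), 0.49 ± 0.14 (adjusted p = 0.0054) and 0.094 ± 0.025 (adjusted p = 0.0038).

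Upstream of ATF4, 17 genes for eIF2 kinases, eIF2 and eIF2B subunits and their regulators were read the same way. On day −2, 2 rose and 1 fell, on day −1, 4 rose and 4 fell, and on day 0, 3 rose and 2 fell. The shares called were 17.6%, 47.1% and 29.4%, against 23.2%, 35.6% and 35.5% of all genes. Those of days −2 and 0 were thus below the shares of all genes. Impact fell on each day. It encodes an inhibitor of the amino acid sensor kinase GCN2, and was at 75.96, 80.5, 77.7, 77.6 and 74.7 CPM in scramble and 60.5, 59.6, 63.1, 61.4 and 59.7 CPM after Kdm5c siRNA on day −2. The groups were far apart, and the log2 differences were −0.34 ± 0.035 on day −2, −0.41 ± 0.034 on day −1 and −0.31 ± 0.033 on day 0 (adjusted p 4.3e-09, 1.7e-11 and 3.1e-09). The haem-regulated kinase gene Eif2ak1 rose by 0.10 ± 0.027 (adjusted p = 0.0065) on day −2, and Gcn1, the ribosome-bound activator of GCN2, rose by 0.12 ± 0.023 (adjusted p = 0.00013) on day 0. Eif2ak4, which encodes GCN2, differed by −0.027, −0.087 and 0.031, of which the day −1 value passed the test (adjusted p = 0.027).

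The other arms of the unfolded protein response, run by IRE1 and ATF6, were mostly higher on all 3 days. Of 11 genes, 9 rose and 1 fell on day −2, 10 rose on day −1 and 10 rose on day 0, and the effect on day 0 was higher than on day −2 for 6. The shares of all genes called higher were 11.3%, 18.8% and 19.3% on the 3 days and 9.95% for the change. Creld2 was the gene that fell on day −2 (−0.12 ± 0.038, adjusted p = 0.023), and it rose on day 0 (0.13 ± 0.040, adjusted p = 0.0090). Hspa5, the chaperone BiP, was at 731, 709, 691, 694 and 721 CPM in scramble and 863, 885, 861, 852 and 876 CPM after Kdm5c siRNA on day 0. The groups were far apart, and the rise was 0.29 ± 0.024 (adjusted p = 9.9e-12), beside 0.18 ± 0.024 (adjusted p = 5.1e-07) on day −2. Hsp90b1 and Manf, also products of the endoplasmic reticulum folding response, rose on day 0 by 0.26 ± 0.022 (adjusted p = 2.1e-11) and 0.27 ± 0.026 (adjusted p = 3.8e-10). Dnajb9, an IRE1 target, rose by 0.30 ± 0.042 on day −2, 0.41 ± 0.045 on day −1 and 0.25 ± 0.043 on day 0 (adjusted p 1.5e-06, 7.4e-09 and 2.9e-05).

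Other synthetases were counted too. Of 8 cytosolic ones outside the members, 1 rose on day −2, 5 on day −1 and 4 on day 0, with Farsa at 0.13 ± 0.028 (adjusted p = 0.00046) and Rars at 0.10 ± 0.025 (adjusted p = 0.0015) on day −1. Their effect on day 0 minus that on day −2 ran from −0.0055 for Vars to 0.10 for Farsa. Of 17 mitochondrial synthetases, 5 fell on day −2, 2 rose and 2 fell on day −1 and 2 fell on day 0, with Cars2 lower on each day (−0.20, −0.14 and −0.15). The shares of all genes on the 3 days were 11.3%, 18.8% and 19.3% called higher and 11.9%, 16.8% and 16.2% called lower. The mitochondrial counts of days −1 and 0 are near or below these shares. Whether these lists differ from the member synthetases was not tested.

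In scramble cells alone, most members and most genes changed between days. From day −2 to day −1, 18 members rose and 8 fell, with 39.5% of all genes higher and 39.4% lower. From day −1 to day 0, 14 rose and 15 fell, with 36.8% and 37.9% of all genes, and from day −2 to day 0, 17 rose and 13 fell, with 44.6% and 43.6%. With scramble replicates 1, 2 and 3 of day −1 left out, 4 members fell from day −2 to day −1. These comparisons share libraries with each other and with the siRNA comparisons. The summed level of the 8 preadipocyte and fibroblast markers also differed, at 16333 to 16966 CPM on day −2 and 22661 to 24704 CPM on day 0, and that of the 7 adipocyte markers was 57.4 to 61.6 and 68.6 to 74.2 CPM. Single genes went both ways from day −2 to day 0. Of the 8, 7 rose and 1 fell, and of the 3 adipocyte markers in the count table, 2 rose and 1 fell, with 88.2% of all genes called. The part of these markers' cells was not tested.

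From day −2 to day 0, 4 of the 6 transcription factor genes and 6 of the 7 regulators rose, against 44.6% of all genes. Vldlr was at 2.81 to 4.12 CPM on day −2, 12.8 to 16.2 CPM on day −1 and 44.3 to 47.9 CPM on day 0 and rose by 3.71 ± 0.088 (adjusted p = 1.2e-28), the largest change of the members. Trib3 was at 24.1 to 31.2 CPM on day −2, 71.9 to 89.2 CPM on day −1 and 113 to 132 CPM on day 0 and rose by 2.15 ± 0.089 (adjusted p = 8.6e-22). Ddit3 was at 13.7 to 15.5 CPM on day −2, 35.7 to 36.7 CPM on day −1 and 57.6 to 61.5 CPM on day 0 and rose by 2.00 ± 0.044 (adjusted p = 1.6e-29). These 3 genes rose in each interval with no overlap between days. Ddit4 and Sesn2 rose by 1.14 ± 0.038 (adjusted p = 1.6e-24) and 1.13 ± 0.036 (adjusted p = 6.2e-25), and Eif4ebp1 was the regulator that fell, by 0.18 (adjusted p = 0.00019). Atf4 itself rose by 0.10 ± 0.032 (adjusted p = 0.0029) and Atf5 by 0.83 ± 0.034 (adjusted p = 4.5e-22).

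Of the 7 enzymes, 4 fell and 2 rose, against 43.6% and 44.6% of all genes. The 4 that fell were those of the serine, glycine and folate steps. Shmt2 was at 315 to 358 CPM on day −2, 249 to 314 CPM on day −1 and 173 to 222 CPM on day 0 and fell by 0.82 ± 0.058 (adjusted p = 3.1e-15). Psat1 was at 504 to 564 CPM on day −2 and 283 to 358 CPM on day 0, and Phgdh at 180.0 to 193 and 103 to 122 CPM, falls of 0.80 ± 0.052 and 0.78 ± 0.041 (adjusted p = 4.1e-16 and 1e-18). Mthfd2 fell by 0.42 (adjusted p = 1.3e-08). The enzymes of proline synthesis rose, Pycr1 by 0.53 ± 0.035 (adjusted p = 6.6e-16) and Aldh18a1 by 0.26 ± 0.032 (adjusted p = 3.1e-09), and Asns was at −0.11 without a call.

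Of the 12 synthetases, 3 rose and 8 fell, against 44.6% and 43.6% of all genes. Sars, Aars and Eprs rose, by 0.62 ± 0.033 (adjusted p = 1.8e-18), 0.55 ± 0.031 (adjusted p = 6.1e-18) and 0.47 ± 0.028 (adjusted p = 5.9e-17), while the falls ran from Mars at −0.74 ± 0.042 (adjusted p = 6.5e-18) and Wars at −0.49 ± 0.045 (adjusted p = 4.6e-12) to Yars at −0.21. Cars had no call (0.057). All 8 of the other cytosolic synthetases fell over the same interval, with a median of −0.84. Among the transporters Slc6a9 and Slc3a2 rose, by 0.87 ± 0.071 (adjusted p = 2.2e-13) and 0.20 ± 0.039 (adjusted p = 2.6e-05), and Slc7a11, Slc7a5 and Slc7a1 had no call (0.036, −0.041 and −0.062).

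**Figure D5:**
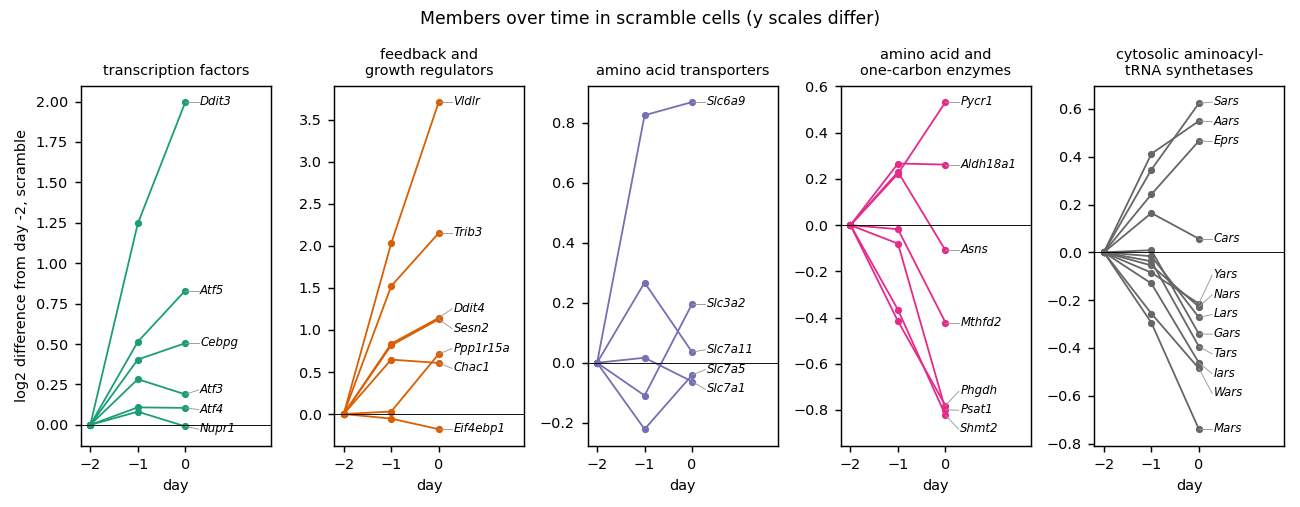
Log2 difference of each member from its day −2 level in scramble cells, against day, with 1 panel per role and y scales that differ. Vldlr, Trib3 and Ddit3 rise through both intervals, while Shmt2, Psat1 and Phgdh end lowest among the enzymes.

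Levels can be compared between genes only per length, here as CPM per kilobase of annotated exon. In day −2 scramble cells Atf5, at 159 CPM per kilobase, Gars, at 153, and Atf4, at 134, had the highest levels of the members. Vldlr, Atf3 and Slc7a11 had the lowest, at 0.340, 0.523 and 0.883 CPM per kilobase. The largest called rises after Kdm5c siRNA on day −2, those of Slc7a11 and Vldlr, were in genes of low level. On day 0 Atf5 was at 291 in scramble and 250.1 CPM per kilobase after Kdm5c siRNA, the highest level of any member in both groups.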

How the data were processed

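Strand-specific mRNA libraries (Universal plus mRNA-Seq Kit, NuGEN) were made from 3T3-L1 cells, per the labels' protocols. STAR 2.7.2a, edgeR 3.26.8 and GRCm38 are named in the submitters' processing notes without a role; the sources used here do not give the read counter, its strand setting or its annotation. Deposited by the authors were CPM for 55573 genes, which were whole reads divided by the library total (100% of nonzero values within 0.05 reads of a whole number), and a table named as normalized counts that held raw counts for 12016 genes, the genes reaching 1 CPM in 20 libraries. Symbols and gene positions came from GENCODE M21 (12010 of 12016 identifiers), promoter windows from RefSeq (GRCm38.p6); gene models differ between them.

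The deposited counts were fitted with edgeR 4.0.16 (R 4.3.3), quasi-likelihood, TMM scaling, full library totals and 6 group means over all 30 libraries (24 residual degrees of freedom, common biological coefficient of variation 0.0367), tested on simulated data. All tests were two-sided, p-values were adjusted by Benjamini-Hochberg over the 12016 genes, and called means adjusted p < 0.05. The limit behind a level of 0 was 3 reads (0.089 to 0.119 CPM, counting error only). Overlap of groups was read from CPM.

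Alternatives were DESeq2 1.42.0, limma 3.58.1 on log2(CPM + 0.5) and log2(CPM + 2), median-of-ratios scaling, no filter (32318 genes), a replicate block, only the libraries of a contrast, each library left out, scramble day −1 replicates 1 to 3 left out together and, added after seeing the data, Kdm5c siRNA day −2 replicate 2 and scramble day 0 replicate 1 left out together. The members, roles and other lists, and the rule for values (Atf4, Atf5, Ddit3 and Cebpg always; per siRNA comparison the 5 smallest adjusted p each way; for scramble day 0 against day −2 the 5 largest changes each way; up to 3 per other list), were chosen with earlier results of these data known. Values of further members, given by role, were added after they were seen, as were those of Creld2, Eif2ak4 and other named genes outside the rule.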

Additional observations from a re-analysis of the deposited data

Results flagged for a closer look

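In 228 sets of 5 libraries (each member and the mean of all members, in each group), 23 had 1 library far from the others by Dixon's criterion, which chance alone meets in about 1 of 20. Of these, 16 were in Kdm5c siRNA replicate 2 of day −2, where the mean relative log2 level of all members was 0.2976, against 0.04513 to 0.1164 in the other 4 libraries. Its members were, with the range of the other 4 libraries in brackets, Trib3 at 44.95 CPM (28.53 to 32.89), Chac1 at 26.68 CPM (18.92 to 20.87), Slc7a11 at 24.44 CPM (14.96 to 16.08), Slc7a5 at 252.5 CPM (199.1 to 207.3), Slc7a1 at 154.9 CPM (131.1 to 137), Slc3a2 at 250.6 CPM (215.5 to 224.3), Slc6a9 at 28.78 CPM (20.94 to 23.11), Asns at 318.3 CPM (261.2 to 272.2). The rest were Psat1 at 597.2 CPM (533.3 to 551), Shmt2 at 389.8 CPM (344 to 355.5), Mthfd2 at 210.2 CPM (171.4 to 182.5), Gars at 530.8 CPM (477.8 to 488.3), Iars at 340.9 CPM (312.8 to 318.8), Lars at 238.7 CPM (208.7 to 217.2) and Nars at 408.6 CPM (343.4 to 360.5). All were high.

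In Kdm5c siRNA replicate 1 of day 0, 4 members were high: Slc7a1 at 125 CPM (108.2 to 110.8), Cars at 135.4 CPM (119.6 to 124.1), Eprs at 624.6 CPM (562.6 to 578.6), Lars at 190.2 CPM (168.8 to 174.7). Ddit3 was low at 12.88 CPM in Kdm5c siRNA replicate 3 of day −2 (15.51 to 16.5 in the others) and at 32.26 CPM in replicate 5 of day −1 (34.74 to 35.49). Vldlr was high at 23.23 CPM in Kdm5c siRNA replicate 2 of day −1 (17.26 to 18.2).

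The siRNA effect differed between day 0 and day −2 by the test of the difference for 17 members, all with the lower effect on day 0. The log2 values were −0.2071 for Atf4, −0.2372 for Atf5 and −0.3373 for Ddit3 among the factors. They were −0.4909 for Trib3, −0.3744 for Chac1, −0.2387 for Sesn2, −0.2788 for Ppp1r15a and −0.5434 for Vldlr among the regulators. For the transporters they were −0.5382 for Slc7a11, −0.3684 for Slc7a5, −0.2745 for Slc7a1, −0.1947 for Slc3a2 and −0.4112 for Slc6a9. For the enzymes and synthetases they were −0.2507 for Asns, −0.1554 for Aldh18a1, −0.2064 for Eprs and −0.2025 for Sars.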

How the results depend on the processing

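Of the values recomputed for single members over all alternatives, 4832 kept their side of the threshold, 132 lost a call, 105 gained one and 0 reversed while called. The 4832 include values that changed sign without a call in either fit. Without the filter, 18 members were called higher on day −2 and 17 on day −1. Of the 32318 genes tested there, 7.77% and 12.3% were called in either direction on these days. With scramble replicates 1, 2 and 3 of day −1 left out, 1 was higher and 1 lower after Kdm5c siRNA on day −1, and 4 fell from day −2 to day −1. Both limma settings called 5 lower from day −2 to day −1. With Kdm5c siRNA day −2 replicate 2 and scramble day 0 replicate 1 both left out, 7 were higher on day −2 and 2 on day 0. Causes were not tested. With single libraries left out, 7 to 13 members were higher on day −2 (7 without Kdm5c siRNA replicate 2) and 8 to 14 on day −1. On day 0, 0 to 2 were higher and 7 to 15 lower, and 14 to 20 had a lower effect on day 0 than on day −2. Of all genes, 19.1% to 22.2% were then called in either direction on day −2, 31% to 34.9% on day −1 and 31.7% to 35.8% on day 0. For the change between days the share was 13.8% to 18.3%. The replicate numbers are shared by the groups without a stated pairing, and same-numbered libraries deviated together with r of −0.225 to 0.299. With the replicate block, 11 were higher on day −2, 10 higher on day −1 and 10 lower on day 0, and 16 had a lower effect on day 0; Slc6a9 (0.051) and Pycr1 (0.053) on day 0 and Chac1 for the difference (0.056) missed the threshold. Another scaling moved the median of all genes by less than 0.1.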
